A study of Saccharomyces cerevisiae with 12 samples.

Results

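The genes described are those of the small subunit of the budding yeast cytoplasmic ribosome, taken as every gene whose annotated symbol is RPS followed by a number and, where the gene has a duplicate, the letter A or B. They were 55 of the 5574 named genes on the arrays. Of these, 48 form 24 pairs of A and B copies, and 7 have a single copy (RPS2, RPS3, RPS12, RPS13, RPS15, RPS20 and RPS31).

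Every array set total RNA of a deletion mutant against total RNA of the wild-type strain FY2, so FY2 was the control throughout. The 4 groups, with 3 arrays each, were the snf2 deletion strain FY31 in minimal medium, the swi1 deletion strain YPS1 in minimal medium, FY31 in the rich medium YPD, and YPS1 in YPD. They are called snf2 minimal, swi1 minimal, snf2 rich and swi1 rich. The labels name 1 strain for each mutant and give neither further alleles nor growth stage. They also do not state whether replicate arrays used RNA of different cultures, and p-values therefore cover the spread between arrays, which may be technical.

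Snf2 is the ATPase motor of the Snf/Swi chromatin remodelling complex and Swi1 is another subunit of it. The complex moves nucleosomes and helps transcription of many inducible yeast genes. The small ribosomal subunit binds messenger RNA and reads its codons. Its head, body and platform are built from ribosomal RNA and the Rps proteins, and most of these proteins are encoded by a pair of genes left from the ancient duplication of the yeast genome. Ribosomal protein genes are among the most heavily transcribed in growing yeast. The factors Rap1, Fhl1, Ifh1 and Sfp1 act on them, and nutrient signals reach them through the TOR and protein kinase A pathways.

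Values are log2 ratios on the scale of mutant over wild type, each array having been set to 0 at its median gene, so a value below 0 means lower in the mutant than in FY2 relative to that gene. The labels make this direction likely but do not state it, and here it is an assumption. It was taken because FY2 is the second channel and stands first in the labels' strain names, and because the ratio of the scanning program ScanAlyze is the second channel over the first; no dye is given. The SNF2 gene goes against it. As deposited, before the sign was turned, SNF2 stood at -0.85 and -1.07 on snf2 minimal replicates 2 and 3, at -0.79 and -0.76 on those of snf2 rich, and at -0.51 and 0.20 on replicate 1 of these groups. It was thus below 0 on 5 of the 6 snf2 arrays, which reads as lower in the snf2 strain only if the deposited ratio is mutant over wild type. With the direction used here SNF2 was higher in its own deletion strain, by 0.89 ± 0.15 in snf2 minimal (SE, n = 2, limma adjusted p = 0.00467) and 0.67 ± 0.15 in snf2 rich (adjusted p = 0.0104). On swi1 arrays its deposited values ran from -0.23 to 0.62. The SWI1 probes were mixed on swi1 arrays, with 4 deposited values above 0 and 3 below. The sources used here do not say which part of either gene was deleted or which part a probe holds. With the opposite reading every lower below would become higher, while sizes, counts and the differences without their sign would stand. That all arrays run the same way is also an assumption. Replicates 2 and 3 of all groups share 1 platform, and these 8 arrays enter the tests. Replicate 1 lies on 2 other platforms that hold 50 of the 55 genes each, and is set beside them. Of these, 1 holds both minimal groups and 1 both rich groups, so on replicate 1 medium and platform cannot be told apart. Replicate 1 of snf2 rich stood apart, with a standard deviation over probes of 1.40, against 0.60 to 0.83 on the other arrays. On replicate 3 of snf2 rich 5299 of 8832 probes had a value, so fewer genes were tested in that group.

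The small-subunit genes lay below 0 on nearly every array. Their median log2 ratio on replicates 1, 2 and 3 was -0.73, -0.64 and -0.73 for snf2 minimal, and -0.68, -0.56 and -0.61 for swi1 minimal. It was -1.07, -0.75 and -0.72 for snf2 rich, with -0.56, -0.59 and -0.66 for swi1 rich. On 7 of the 12 arrays every measured small-subunit gene was below 0, and the lowest share was 45 of 49, on replicate 1 of snf2 rich. The spread of these genes on 1 array, a standard deviation of 0.18 to 0.56, was narrower than that of all genes on the same arrays, 0.55 to 1.41.

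**Figure D1:**
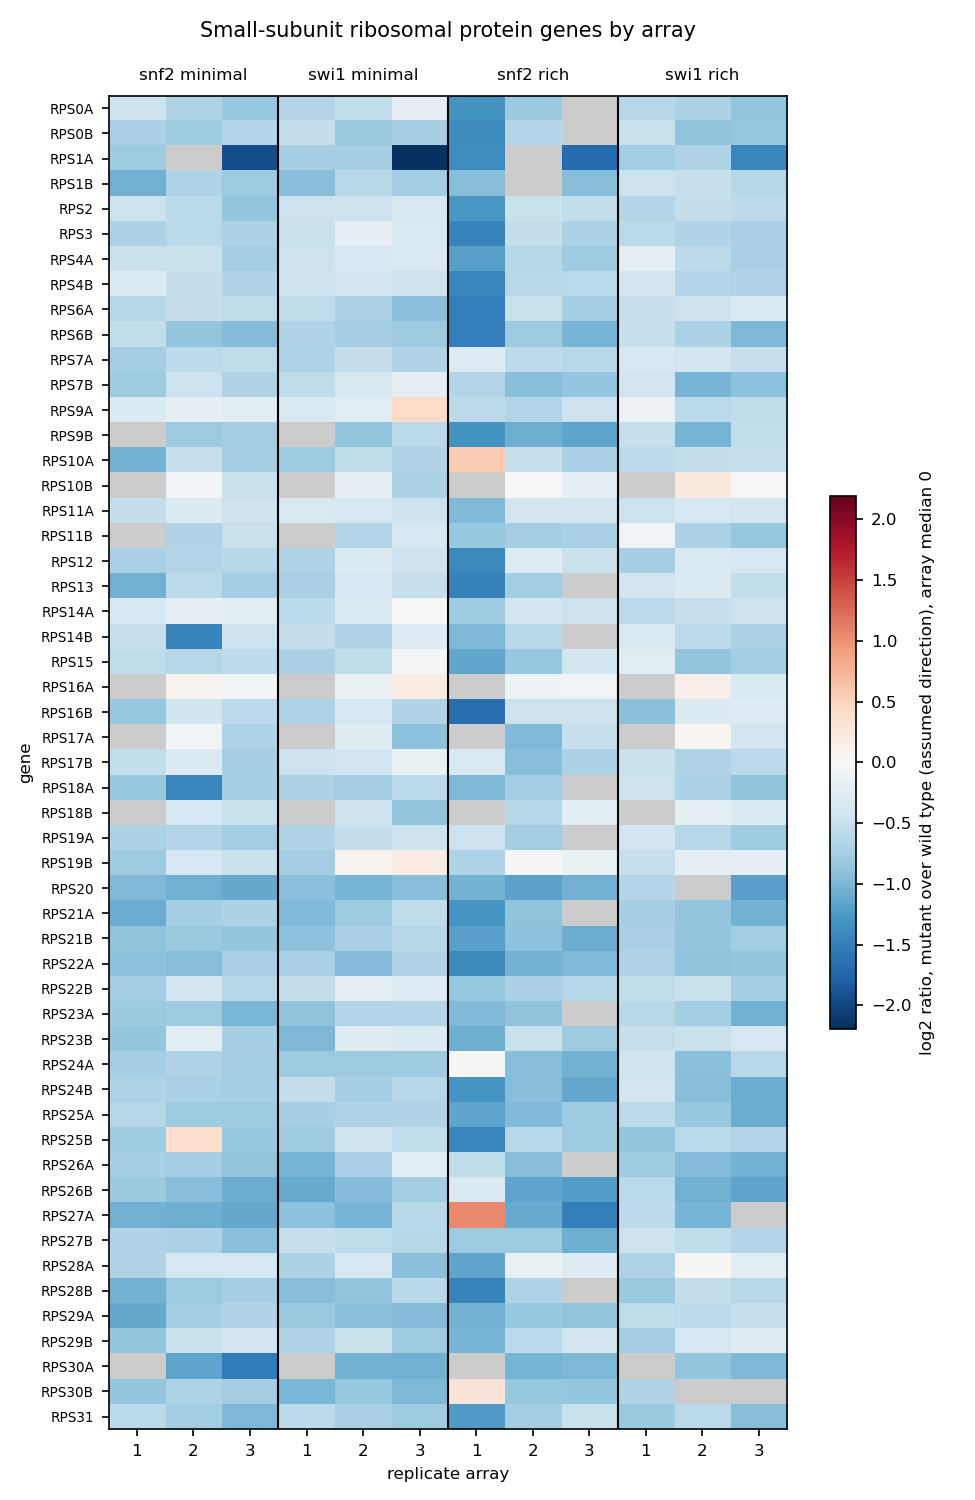
Log2 ratio of mutant over wild type (colour, assumed direction, array median at 0) of 53 small-subunit genes (rows) on each of the 12 arrays (columns, by group and replicate). Grey cells have no value, and blue, below 0, fills most of the plot. RPS1A is darkest on replicate 3 of all 4 groups.

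In the test across all genes (limma, Benjamini-Hochberg adjustment, adjusted p under 0.05, 2 arrays a group), most small-subunit genes fell and none rose. In snf2 minimal 46 of 54 tested fell, with 16.4% of all genes tested called lower. In swi1 minimal 39 of 55 fell, with 14.8% of all genes called lower. In snf2 rich the count was 38 of 43, with 22.2% called lower, and in swi1 rich 42 of 52, with 21.7%. The medians of the fitted log2 ratios were -0.68, -0.61, -0.67 and -0.64 in this order, which are 0.625, 0.655, 0.627 and 0.643 times the wild-type level, and the medians over all genes tested were 0.006, 0.0025, 0.0145 and -0.00275. Falls of 2-fold or more were seen for 5, 2, 5 and 2 of the called genes. Over all genes tested, 196 of 5307, 208 of 5354, 156 of 3698 and 181 of 5026 were called with such a fall. In swi1 minimal and swi1 rich the small-subunit share was thus close to that of all genes.

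In a fit of all 12 arrays with platform as a random block, 28 genes fell in snf2 minimal, 19 in swi1 minimal, 29 in snf2 rich and 20 in swi1 rich, where 4.96%, 4.54%, 9.55% and 5.09% of all genes tested were called lower. Without replicate 2 or without replicate 3 of swi1 minimal 22 small-subunit genes fell there, with 6.01% and 8.31% of all genes called lower. Without replicate 3 of swi1 rich 25 fell there, with 11.7% called lower. In these bulk cultures fewer cells that express a gene and less of its RNA per cell cannot be told apart. FY2 is the second channel and no dye is given, so a channel or dye effect and a mutant effect cannot be told apart either.

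Of the 40 genes tested in all 4 groups, 24 fell in each of them, with 9.54% of all genes tested in 4 groups called lower in each. Of the 14 tested in 3 groups, 12 fell in all 3, with 7.48% of all genes tested in 3 groups. RPS10B and RPS16A were tested in all 4 groups and called in none. RPS17A, RPS19B, RPS25B and RPS28A were called in 1 group of 4.

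**Figure D2:**
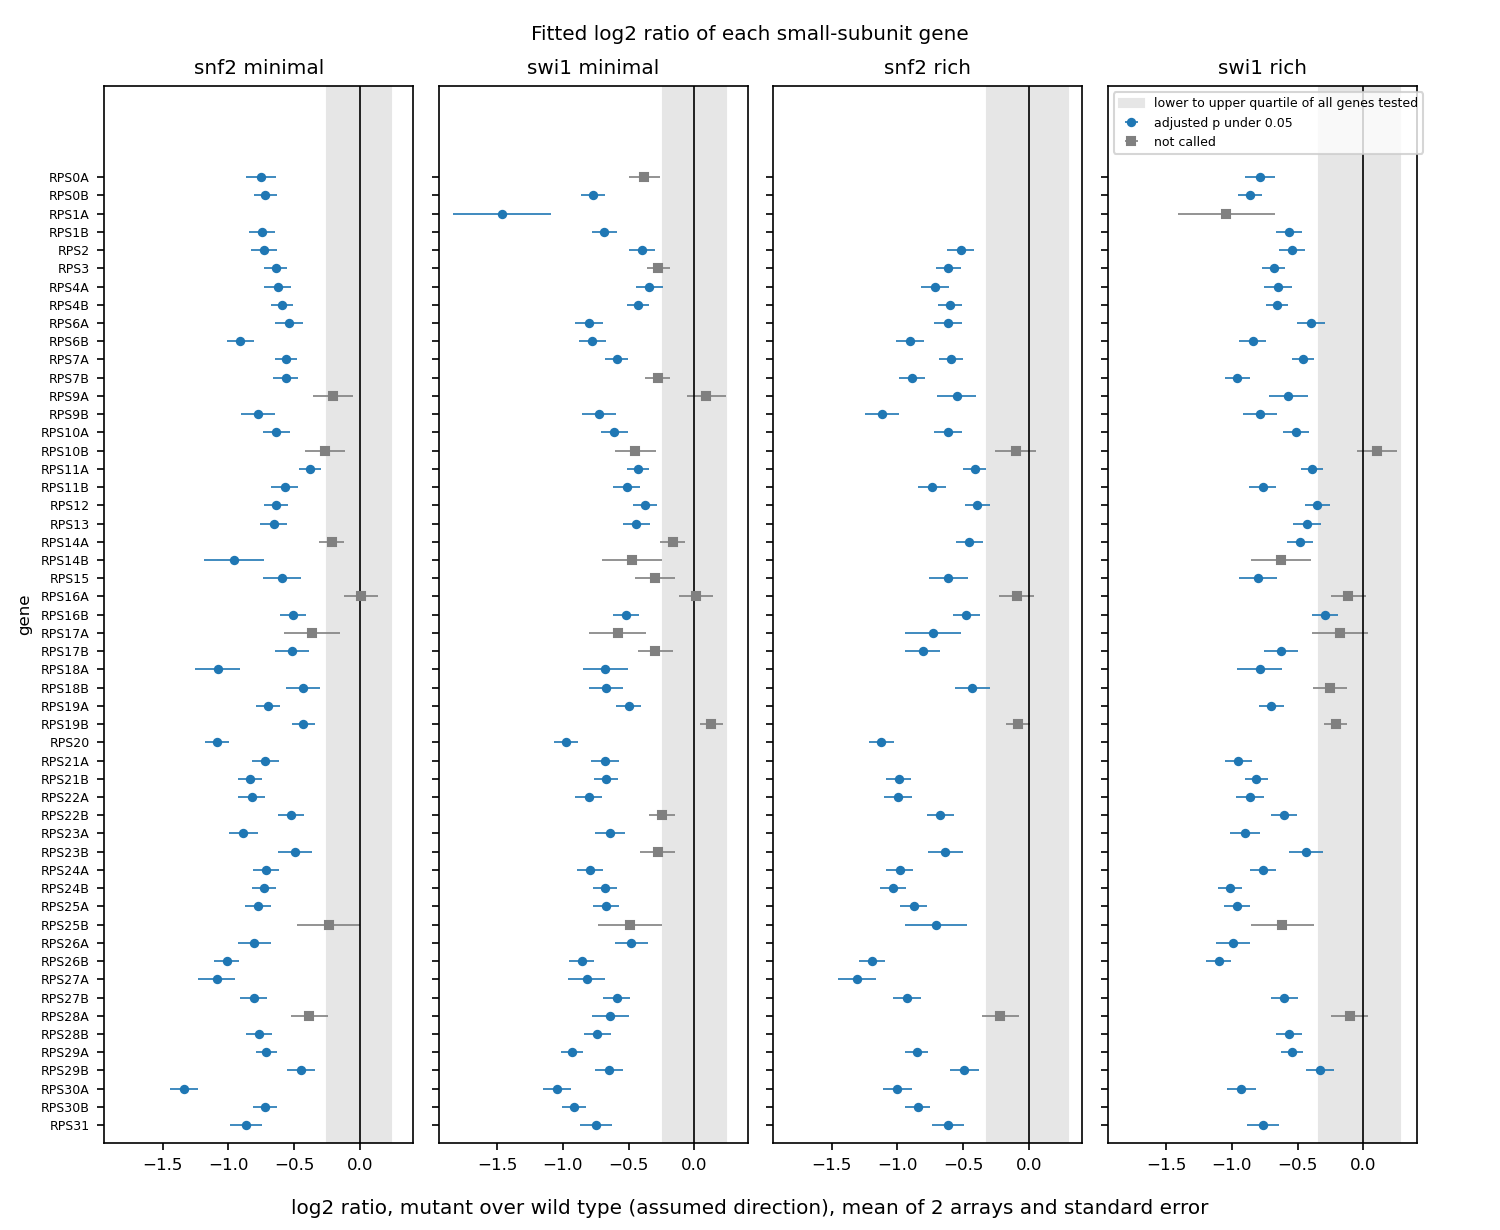
Fitted log2 ratio of mutant over wild type (assumed direction, x axis) of 53 small-subunit genes (y axis) in the 4 groups, as the mean of 2 arrays with its standard error. Circles passed adjusted p under 0.05, squares did not, and the grey band runs from the lower to the upper quartile of all genes tested. Most genes sit left of the band, between -0.5 and -1, and RPS16A lies close to 0 in all 4 panels.

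Several proteins line the channel through which messenger RNA enters the subunit. Rps30, a small basic protein there, is made from the RPS30A and RPS30B genes. RPS30A stood at -1.15 and -1.53 on replicates 2 and 3 of snf2 minimal, at -1.05 on both arrays of swi1 minimal, at -1.02 and -0.98 in snf2 rich and at -0.87 and -0.99 in swi1 rich. It fell in all 4 groups, and its log2 ratio in snf2 minimal, -1.34 ± 0.11 (SE, n = 2, limma adjusted p = 0.000182), was the lowest of the 54 small-subunit genes tested there. RPS1A, with a value on 1 array of that group, was not tested. RPS30B fell in the 3 groups where it was tested, at -0.91 ± 0.09 in swi1 minimal. Rps2 and Rps3 hold the entry channel open and unwind messenger RNA. RPS2 fell in each group, with log2 ratios of -0.73, -0.40, -0.52 and -0.54 in snf2 minimal, swi1 minimal, snf2 rich and swi1 rich. RPS3 fell to -0.64 in snf2 minimal, -0.61 in snf2 rich and -0.68 in swi1 rich, and had -0.27 in swi1 minimal, where it was not called (adjusted p = 0.0581). Rps9 also lies at the entry and affects the accuracy of decoding. RPS9B fell in all 4 groups, most in snf2 rich at -1.12 ± 0.13, whereas RPS9A had -0.20 and 0.09 in snf2 and swi1 minimal, not called, and fell in snf2 and swi1 rich at -0.55 and -0.57.

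At the opposite end messenger RNA leaves between Rps1, Rps14, Rps26 and Rps28. Rps26 contacts the messenger RNA just upstream of the start codon. RPS26B stood at -0.93 and -1.10 on the arrays of snf2 minimal, at -0.96 and -0.76 on those of swi1 minimal, at -1.15 and -1.23 for snf2 rich and at -1.05 and -1.15 for swi1 rich. All 8 values lay between -1.23 and -0.76, and the gene fell in all 4 groups, at -1.19 ± 0.10 in snf2 rich (adjusted p = 0.000139) and -1.10 ± 0.10 in swi1 rich (adjusted p = 0.000286). RPS26A fell in the 3 groups where it was tested and reached -0.99 ± 0.13 in swi1 rich. RPS1A had the lowest value of all in swi1 minimal, -1.46 ± 0.37 (adjusted p = 0.0399), but this mean joins -0.73 and -2.20. Without replicate 3 of that group the call was lost (-0.73, adjusted p = 0.215). Its replicate 3 values were -1.95, -2.20, -1.70 and -1.43 in snf2 minimal, swi1 minimal, snf2 rich and swi1 rich, while replicate 2 of swi1 minimal and of swi1 rich gave -0.73 and -0.66. RPS1B, its copy, did not share this gap and stood at -0.60 and -0.77 in swi1 minimal. RPS14A fell in both rich groups, at -0.45 in snf2 and -0.48 in swi1, and RPS14B fell in snf2 minimal alone of its 3 tested groups, where 1 array held -1.45 and the other -0.47. RPS28B fell in its 3 tested groups, and RPS28A fell in swi1 minimal, at -0.64, with -0.39, -0.22 and -0.10 in snf2 minimal, snf2 rich and swi1 rich. On replicate 1 RPS28A had -0.66, -0.70, -1.155 and -0.68 in snf2 minimal, swi1 minimal, snf2 rich and swi1 rich.

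The head of the subunit holds the transfer RNAs and touches the large subunit. Rps20, a head protein that the ubiquitin ligase Hel2 marks when ribosomes collide, is made from a single gene. RPS20 stood at -1.05 and -1.12 on the arrays of snf2 minimal, at -1.01 and -0.94 on those of swi1 minimal, at -1.18 and -1.06 for snf2 rich and at -1.19 on the 1 measured array of swi1 rich. It fell in the 3 tested groups, at -1.09 ± 0.09, -0.98 ± 0.09 and -1.12 ± 0.10, with adjusted p-values of 0.000536, 0.000903 and 0.000312. This gene varied little between the arrays listed, and it was the lowest of the single-copy genes tested in each of these groups. On replicate 1 it had -0.975, -0.92 and -1.045 in snf2 minimal, swi1 minimal and snf2 rich, and -0.635 in swi1 rich. Rps29 is a zinc-binding head protein, and RPS29A and RPS29B both fell in all 4 groups, with -0.93 ± 0.08 for RPS29A in swi1 minimal. Rps18 reaches across to the large subunit. RPS18A fell at -1.08 ± 0.17 in snf2 minimal, where its arrays held -1.43 and -0.73, and RPS18B fell at -0.43 there. Rps25 is needed by viral messenger RNAs that start translation internally. RPS25A fell in every group, at -0.96 ± 0.10 in swi1 rich. RPS25B varied more, with 0.37 and -0.84 on the snf2 minimal arrays, and fell in snf2 rich alone, at -0.71.

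The other single-copy head genes changed less. RPS31 encodes a ribosomal protein made as a fusion with ubiquitin, and it fell in all 4 groups, at -0.87, -0.75, -0.61 and -0.77. RPS12, whose protein sits at the beak of the head, fell at -0.64 in snf2 minimal and at -0.38, -0.39 and -0.35 in swi1 minimal, snf2 rich and swi1 rich. RPS15 encodes a protein that contacts the large subunit. It fell at -0.59 in snf2 minimal, -0.61 in snf2 rich and -0.80 in swi1 rich, and had -0.30 in swi1 minimal (adjusted p = 0.176). RPS13, a single-copy gene of the body, fell at -0.66 in snf2 minimal, -0.44 in swi1 minimal and -0.43 in swi1 rich.

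Among the proteins of the body, Rps27 binds zinc, and Rps24 and Rps6 lie at the foot of the subunit, where Rps6 is phosphorylated when TOR is active. RPS27A had -1.06 and -1.12 on the arrays of snf2 minimal, -1.02 and -0.61 on those of swi1 minimal, -1.11 and -1.50 for snf2 rich and -1.02 on the 1 measured array of swi1 rich. It fell in the 3 tested groups, and its -1.31 ± 0.14 was the lowest of the 43 fitted small-subunit values in snf2 rich (adjusted p = 0.000784). RPS24B fell in all 4 groups, in the rich groups at -1.03 ± 0.10 in snf2 and -1.01 ± 0.09 in swi1. RPS24A, RPS6A and RPS6B fell in all 4 groups as well. So did RPS4A and RPS4B, RPS11A and RPS11B, RPS21B and RPS22A. RPS7B, which encodes a target of the ubiquitin ligase Not4, fell in snf2 minimal, snf2 rich and swi1 rich, and reached -0.96 ± 0.10 in swi1 rich.

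Counted by place in the subunit, a grouping made after the values were seen and therefore not tested, genes of the head and genes of the body and platform both fell in most tests. Among the 21 head genes, 16 of 21, 13 of 21, 14 of 18 and 13 of 20 tested fell in snf2 minimal, swi1 minimal, snf2 rich and swi1 rich, with medians of -0.59, -0.58, -0.61 and -0.53. Among the 34 body and platform genes, 30 of 33, 26 of 34, 24 of 25 and 29 of 32 fell, with medians of -0.72, -0.64, -0.79 and -0.75. The single-copy genes fell in 7 of 7, 5 of 7, 6 of 6 and 6 of 6 tests. Beside all these counts, 16.4%, 14.8%, 22.2% and 21.7% of all genes tested were called lower in the same order of groups.

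RPS16A was among the 3 genes nearest to 0 in all 4 groups. This gene, whose protein reaches with its tail towards the transfer RNA, had log2 ratios of 0.01, 0.01, -0.09 and -0.11 in snf2 minimal, swi1 minimal, snf2 rich and swi1 rich, against -0.51, -0.52, -0.48 and -0.29 for RPS16B, which fell in all 4. RPS10B had -0.10 in snf2 rich and 0.11 in swi1 rich, and RPS9A 0.09 in swi1 minimal. RPS16A and RPS10B each had 1 probe on the tested arrays and no value on replicate 1. Rps19 is the head protein whose human counterpart is mutated in Diamond-Blackfan anaemia. RPS19B had 0.13 in swi1 minimal, -0.08 in snf2 rich and -0.21 in swi1 rich, and fell in snf2 minimal, at -0.43. Its 2 spots disagreed: over the arrays their medians were 0.15 and -0.55, and the gap between them had a median of 0.87. RPS14A showed a gap of 0.54, with medians of -0.57 and -0.11. Over all 11 genes with 2 spots, the gap had a median of 0.233 over 83 comparisons and a largest value of 1.05. For RPS30A the spots gave -1.04 and -1.01.

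Replicate 1, on other platforms, was not used in these calls. On it every called gene that was measured lay below 0 in snf2 minimal (42 of 42), swi1 minimal (35 of 35) and swi1 rich (40 of 40), and 30 of 34 did in snf2 rich. Calls in either direction made up 29.2%, 28.5%, 40.8% and 41.7% of all genes tested in snf2 minimal, swi1 minimal, swi1 rich and snf2 rich. Over these called genes, the sign matched for 82.6%, 80.5%, 73.3% and 64.7% in the same order. The 4 genes above 0 on replicate 1 of snf2 rich were RPS27A at 1.05, RPS10A at 0.56, RPS30B at 0.28 and RPS24A at 0.02. That array is the one with the wide spread of values.

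The next question was whether the snf2 and swi1 deletions differed. Within minimal medium, no small-subunit gene of 54 tested differed between snf2 and swi1, with 0.0% of all genes called, and 3 had an unadjusted limma p under 0.05, as had 5.47% of all genes. They were RPS19B (-0.56 ± 0.12, adjusted p = 0.638), RPS2 (-0.33 ± 0.14, adjusted p = 0.838) and RPS3 (-0.37 ± 0.13, adjusted p = 0.838), as snf2 minus swi1. Within rich medium none of 40 did, with 0.0294% of all genes called, and RPS29A alone had an unadjusted p under 0.05 (-0.31 ± 0.12, adjusted p = 0.741), as had 6.65% of all genes. The median difference was -0.12 in minimal and -0.07 in rich medium, against -0.02 and -0.01 over all genes. A typical gene's 95% interval reached 0.344 and 0.352 to each side, so differences within it were not resolved by 2 arrays a group.

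The media were compared within each mutant, as the mutant-to-wild-type ratio in minimal medium minus that in rich medium. In snf2 none of 43 small-subunit genes differed, with 5.0% of all genes called, and 2 had an unadjusted limma p under 0.05 (RPS19B at -0.35 and RPS7B at 0.33), as had 21.2% of all genes. In swi1 1 of 52 differed, with 6.26% of all genes called, and 13 of the 52 had an unadjusted p under 0.05, beside 25.5% of all genes. The 1 called gene was RPS7B, with -0.36 and -0.20 on the swi1 minimal arrays and -1.03 and -0.89 on the swi1 rich arrays, so the groups did not overlap. The difference was 0.68 ± 0.14 (SE, n = 2 arrays a group, limma adjusted p = 0.0327), meaning that the ratio was closer to 0 in minimal medium. RPS7A, its copy, had a difference of -0.13. In snf2 the RPS7B values were -0.47 and -0.66 in minimal and -0.94 and -0.84 in rich medium. On replicate 1 of swi1 RPS7B had -0.55 in minimal and -0.40 in rich medium, which is the opposite order. Those arrays lie on different platforms, so medium and platform cannot be told apart there. Leaving out either snf2 minimal array or any 1 of the 4 swi1 arrays ended the call, with adjusted p from 0.0515 to 0.157.

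**Figure D3:**
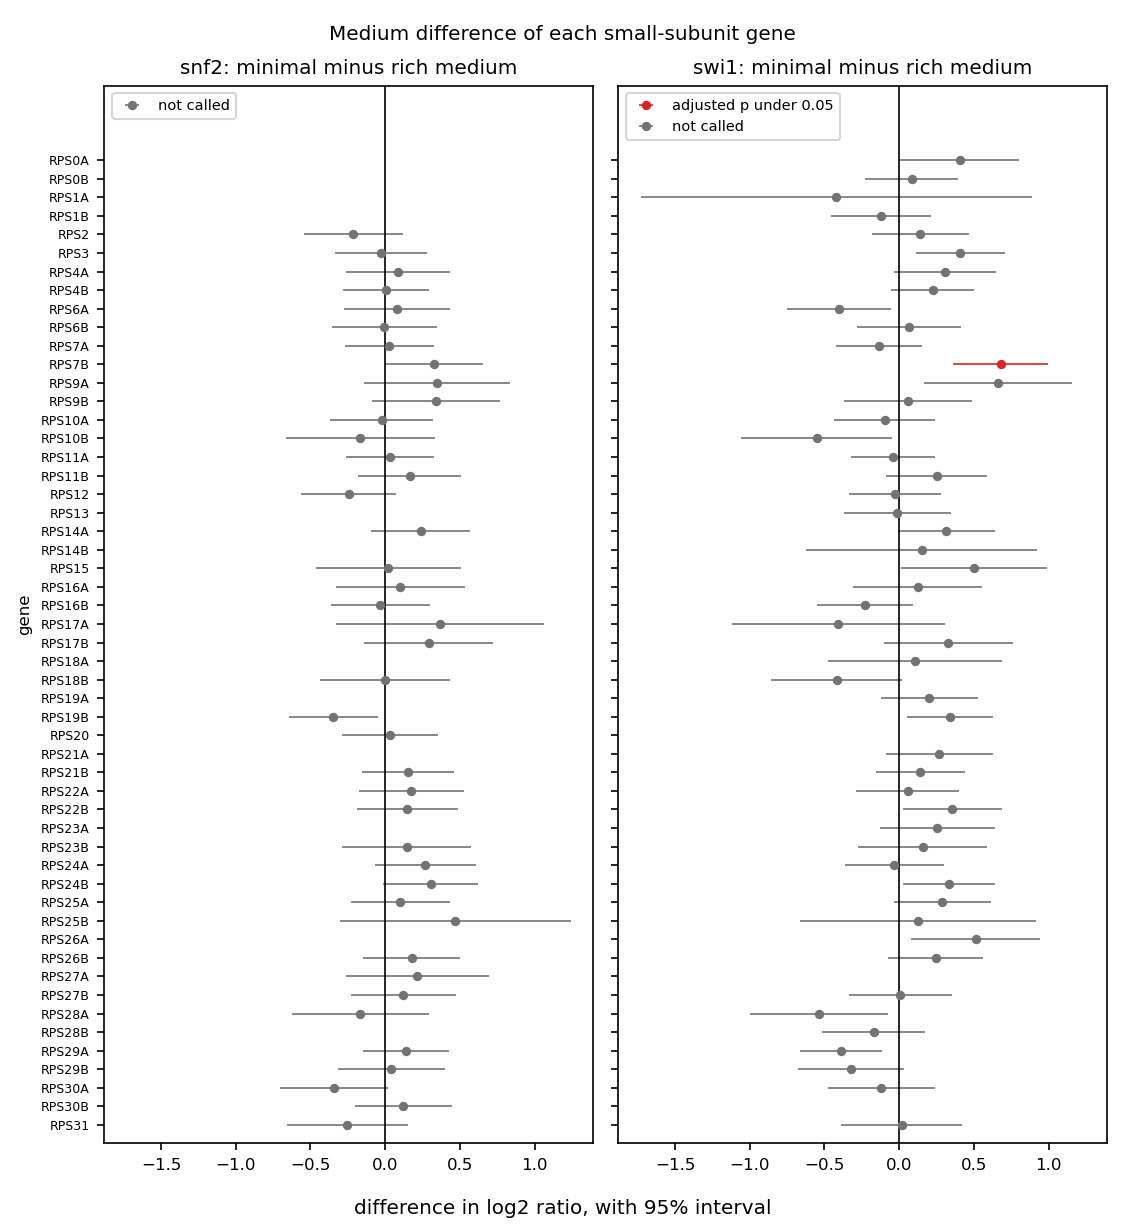
Difference in log2 ratio between minimal and rich medium (x axis, with its 95% interval) for 53 small-subunit genes (y axis), in snf2 on the left and swi1 on the right. RPS7B in swi1, at 0.68, is the 1 gene that passed adjusted p under 0.05.

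The copies of a pair were compared within each array, as the log2 ratio of A minus that of B, in a limma fit over all gene pairs of the array table whose symbols differ by a final A or B. Few pairs passed the test. Most pairs in that fit were ribosomal: of 57 tested in snf2 minimal, 23 were of the small and 32 of the large subunit. In snf2 rich 15 and 20 made up all 35. The shares of all pairs given here are thus largely shares of ribosomal pairs, the small-subunit pairs included. In snf2 minimal 2 of 23 pairs differed, with 8.77% of all such pairs called. In swi1 minimal 3 of 24 did, with 12.3% called, in snf2 rich 2 of 15, with 8.57%, and in swi1 rich 1 of 22, with 3.77%. Copies share much of their coding sequence and the sources used here do not say which part of a gene a probe holds. A probe may thus bind RNA of both copies, and these differences are uncertain. For the same reason the counts and values of single A and B genes given above may not be separate measurements.

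RPS9 differed in 3 groups. RPS9A minus RPS9B was 0.63 and 0.51 on the snf2 minimal arrays, 0.62 and 1.01 on the swi1 minimal arrays, 0.43 and 0.70 for snf2 rich and 0.43 and -0.01 for swi1 rich. The A copy was higher on 7 of 8 arrays, and the fitted difference was 0.57 ± 0.15 in snf2 minimal, 0.81 ± 0.15 in swi1 minimal and 0.57 ± 0.17 in snf2 rich, with adjusted p-values of 0.0410, 0.0137 and 0.0212. On replicate 1 both copies were measured in the rich groups, and A was higher by 0.73 in snf2 and 0.37 in swi1. RPS22 encodes a body protein, and the RPS22B transcript has an intron that the RNase Rnt1 can cut. RPS22A was below RPS22B on all 8 arrays and on all 4 replicate 1 arrays, and the pair was called in swi1 minimal, at -0.56 ± 0.15 (adjusted p = 0.0410). RPS28A was above RPS28B on 6 of 7 arrays and on 4 of 4 replicate 1 arrays, without a call.

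For RPS19 the platforms gave opposite orders. RPS19A was below RPS19B on all 7 arrays where both were measured and the pair was called in swi1 minimal, at -0.63 ± 0.11 (adjusted p = 0.0137), but on replicate 1 RPS19A was above RPS19B on 4 of 4 arrays, by 0.08 to 0.21. The order on the 7 arrays used the mean of the RPS19B spots, whose medians were 0.15 and -0.55, beside -0.64 for RPS19A. On replicate 3 of swi1 minimal only the RPS19B spot with the higher median had a value. RPS30A was below RPS30B by 0.47 and 0.76 in snf2 minimal, and by 0.06 to 0.21 on the 4 arrays of swi1 minimal and snf2 rich. That pair was called in snf2 minimal, at -0.62 ± 0.13 (adjusted p = 0.0175). RPS10A was below RPS10B by 0.51 and 0.52 in snf2 rich and by 0.73 and 0.51 in swi1 rich, and was called in both, at -0.51 ± 0.17 (adjusted p = 0.0390) and -0.62 ± 0.13 (adjusted p = 0.0378). Some large uncalled differences joined unequal arrays. RPS14A minus RPS14B was 1.26 and 0.23 in snf2 minimal, RPS18A minus RPS18B was -1.05 and -0.25 there, and RPS1A minus RPS1B was -0.13 and -1.43 in swi1 minimal. In others the arrays lay closer together. RPS16A minus RPS16B was 0.52 on both arrays of snf2 minimal and 0.37 and 0.40 in snf2 rich, and in swi1 rich RPS18 had -0.49 and -0.57 and RPS7 0.62 and 0.38.

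Of the 24 pairs, 8 had 1 sign on every one of the 8 arrays where both copies had a value: RPS1, RPS14, RPS19, RPS22, RPS23, RPS26, RPS29 and RPS30. Over all 57 A and B pairs with values on at least 6 of these arrays, 16 did (28.1%). Those 57 include the 24 small-subunit pairs. Replicate 1 held values for 7 of the 8 pairs. Its arrays all gave the same order for RPS22 and all gave the opposite order for RPS19, and they were mixed for the other 5 pairs. RPS23A, below RPS23B on the 8 arrays, was above it on 3 of 4 replicate 1 arrays. None of the 9 pair calls, those between media included, held when each of the 8 arrays was left out in turn, and the 12-array fit called no pair.

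**Figure D4:**
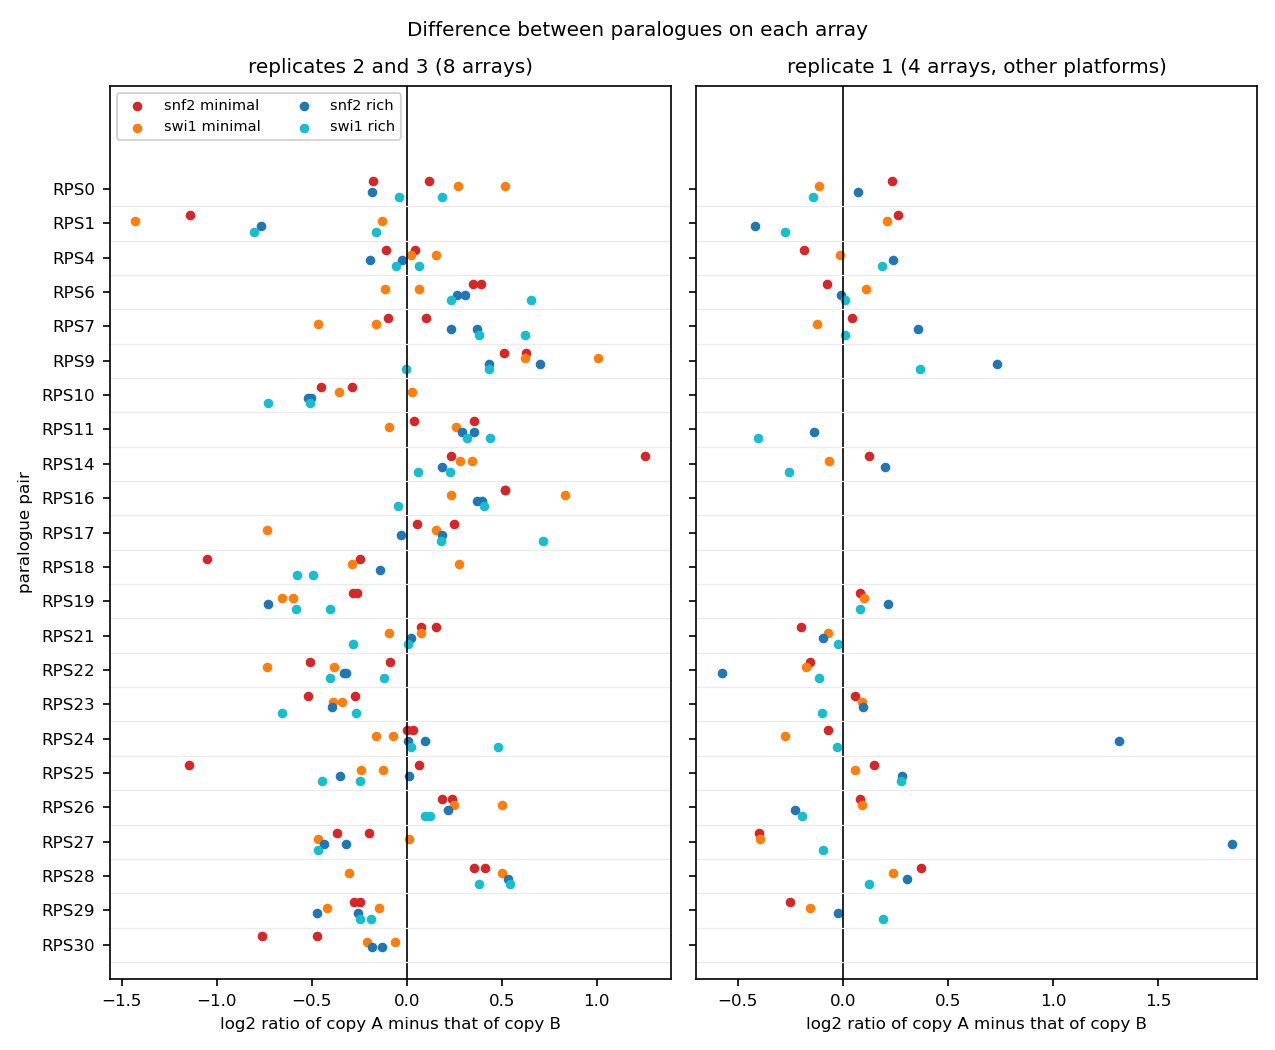
Log2 ratio of copy A minus that of copy B (x axis) for 23 pairs (y axis) on each array, coloured by group, on replicates 2 and 3 at left and replicate 1, on other platforms, at right. The panels have their own x ranges. RPS22 lies left of 0 in both panels, RPS9 mostly right of 0 in both, and RPS19 changes side.

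The A minus B difference was also set between media. In snf2 1 of 15 pairs differed, with 2.94% of all pairs called, a share made up of that 1 pair of 34. The snf2 fit gave every pair the same standard error, 0.2455, so unequal arrays within a pair did not widen its error. In swi1 none of 22 pairs differed, with 1.89% called and 5 at an unadjusted limma p under 0.05, as were 17.0% of all pairs. The snf2 count ran from 0 to 2 when each of the 8 arrays was left out in turn.

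Genes that work with the small subunit were counted by lists made with earlier results of these data known. For the large subunit 79 genes matched by symbol, 1 of which, RPP1, encodes a subunit of RNase P and RNase MRP and was left out of the counts here after the values were seen. Of the other 78, 71 of 77, 60 of 76, 54 of 59 and 65 of 73 tested fell in snf2 minimal, swi1 minimal, snf2 rich and swi1 rich and none rose. Beside them, 16.4%, 14.8%, 22.2% and 21.7% of all genes tested were called lower. The large-subunit medians were -0.67, -0.55, -0.73 and -0.72, beside -0.68, -0.61, -0.67 and -0.64 for the small subunit. RPP1B and RPP2B encode proteins of the stalk. RPP1B, at -1.49 ± 0.11, and RPL42B, at -1.15 ± 0.13, were the lowest called in snf2 minimal, and RPL42B, at -1.11 ± 0.13, and RPP2B, at -0.94 ± 0.11, in swi1 minimal. Rpl12 sits at the base of the stalk, and its genes RPL12A and RPL12B were the lowest called in snf2 rich, at -1.21 ± 0.14 and -1.19 ± 0.10. In swi1 rich they were RPL8B, at -1.17 ± 0.11, and RPL17A, at -1.12 ± 0.11. Asc1, the scaffold protein bound to the head, and Stm1, which holds resting ribosomes together, are not counted as Rps proteins. STM1 fell in all 4 groups, at -0.73, -0.67, -0.99 and -0.89, and ASC1 fell in 3, with -0.30 in swi1 minimal, where it was not called.

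Assembly factors, which build the small subunit in the nucleolus, also fell: 50 of 71, 35 of 70, 45 of 48 and 56 of 69 in snf2 minimal, swi1 minimal, snf2 rich and swi1 rich, and none rose. Of all genes tested, 16.4%, 14.8%, 22.2% and 21.7% were called lower in these groups. Their medians were -0.51 and -0.39 in snf2 and swi1 minimal and -0.81 and -0.74 in snf2 and swi1 rich. SNU13, whose protein binds the U3 and U4 RNAs, fell at -1.26 ± 0.16 in snf2 minimal, and UTP30 at -1.17 ± 0.19. FAF1 fell at -1.04 ± 0.14 in swi1 minimal and RRP12, which encodes a factor in export of the subunits from the nucleus, at -0.82 ± 0.20. NSR1, the yeast nucleolin, fell at -1.44 ± 0.12 in snf2 rich, and LCP5, which encodes a factor that binds with the U3 complex, at -1.38 ± 0.11. LCP5 fell at -1.48 ± 0.10 in swi1 rich, and DHR2, an RNA helicase gene, at -1.24 ± 0.16. Between media in swi1, 6 of 68 assembly factors were called and higher in minimal than in rich medium, where 2.07% of all genes tested were called higher.

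The regulators of ribosomal protein genes were called in both directions, at shares not far from those of all genes. Of all genes tested, 12.8%, 13.7%, 19.5% and 19.1% were called higher in snf2 minimal, swi1 minimal, snf2 rich and swi1 rich. The shares called lower were 16.4%, 14.8%, 22.2% and 21.7% in the same order. The list had 5 lower and 3 higher of 27 in snf2 minimal, 6 and 3 of 26 in swi1 minimal, 7 and 6 of 26 in snf2 rich, and 6 and 4 of 26 in swi1 rich. ABF1, a general regulatory factor, fell at -1.15 ± 0.13, and HMO1, a factor at many ribosomal protein promoters, at -0.98 ± 0.16, both in swi1 rich. TPK2, a catalytic subunit of protein kinase A, rose at 0.50 ± 0.09 in swi1 minimal, where TPK3, another, fell at -0.71 ± 0.19. STB3, a repressor of ribosome synthesis genes, rose at 1.34 ± 0.43 in snf2 rich, and KOG1, a TOR complex subunit, fell at -1.13 ± 0.32 there. RAS1 and REB1 fell in snf2 minimal, at -0.83 ± 0.11 and -0.71 ± 0.19.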

How the data were processed

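The authors deposited 1 log2 ratio per probe and array, with 1 table per platform. Images were read with ScanAlyze, per the labels; normalisation and dyes are not given in the sources used here. Base 2 was checked for the 8 arrays with replicates 2 and 3: 13.3% to 17.3% of their values matched, to 3 decimals, log2 of a quotient whose terms were integers of at most 20, against 9.16% to 10.35% for the natural log of such a quotient and 5.68% to 6.69% on a shifted lattice. For replicate 1 base 2 was taken over. Of the 8832 probes on the 8 arrays, 6956 carried 1 gene symbol, 1876 carried none and 0 carried several; 66 probes were of small-subunit genes.

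Signs were turned to mutant over wild type, an assumed direction that SNF2 goes against, spots averaged per gene, and arrays centred on their median gene, by over 0.1 on both snf2 rich arrays (0.108 and 0.111) and on swi1 rich replicate 3 (0.104). Genes with values on both arrays of each group involved were tested with limma 3.58.1 in R 4.3.3, with 1 mean per group and 1 spread over 8 arrays, two-sided, with Benjamini-Hochberg adjustment over all genes (or all A and B pairs) and a threshold of 0.05. The fit was tested on simulated data with independent noise, which checks the code and does not measure false calls or power in these data. In snf2 rich and in the snf2 medium difference the pair fit gave every pair the same standard error, because limma pooled the spread fully. Arrays carry no counts, so their number limits precision.

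Members and lists were chosen with earlier results of these data known. Text names the 5 largest calls per group, the 3 genes nearest 0, called differences and pairs, the 3 largest pair differences per group, single-copy genes, and from each other list the largest 2 calls per group; other genes were added where a count or role called for them, with values seen. Same-numbered replicates did not deviate together (r from -0.03 to 0.02 between groups), so numbers were not taken as pairs. Alternatives were no centring, genes measured on all 8 arrays, a replicate block, all 12 or 11 arrays, the first probe of a gene, and leaving out each array. Promoter sequences and protein identity were not used here. Some genes counted among the members are not reported by name here or plotted.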

Additional observations from a re-analysis of the deposited data

Results flagged for a closer look

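RPS7B differed between media in swi1: its log2 ratio in minimal minus rich medium was 0.68, which passed the limma test of the difference itself, while the difference of 0.33 in snf2 did not (adjusted p = 0.236). Whether the medium difference itself differs between the mutants was not tested. RPS7B was the 1 called of 52 small-subunit genes, beside 6.26% of all genes tested. The value rests on 2 arrays a group, and the 12-array fit did not call it (limma adjusted p = 0.151). The order was opposite on replicate 1, where medium and platform cannot be told apart.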

How the results depend on the processing

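In each of the 4 groups the median log2 ratio of the small-subunit genes stayed below 0 under every alternative run, and their calls numbered 19 or more. With 2 arrays a group, and probe brightness over background not given in the sources used here, small differences were not resolved. Leaving out 1 array at a time gave 31 to 47 genes called in snf2 minimal, 22 to 41 in swi1 minimal, 27 to 38 in snf2 rich and 25 to 43 in swi1 rich, with medians of -0.73 to -0.64, -0.61 to -0.56, -0.71 to -0.67 and -0.66 to -0.59. A group left with 1 array was assumed to vary like the others. Of 165 gene calls in the 4 groups, 91 were kept whichever array was left out. The same steps gave 0 to 1 genes for snf2 minus swi1 in minimal medium and 0 to 0 in rich medium, and for minimal minus rich medium 0 to 2 in snf2 and 0 to 1 in swi1. Pairs called were 1 to 5 in snf2 minimal, 0 to 3 in swi1 minimal, 0 to 2 in snf2 rich, 0 to 1 in swi1 rich, and 0 to 2 in both medium differences.

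All 12 arrays with platform as a random block gave 28 genes in snf2 minimal, 19 in swi1 minimal and 20 in swi1 rich, a median of -0.80 in snf2 rich, 0 genes in the swi1 medium difference, and 0 pairs in the 4 groups and in the snf2 medium difference. The same fit without replicate 1 of snf2 rich, chosen after seeing the data, gave a median of -0.71 in snf2 rich, 1 pair in swi1 minimal, 0 pairs in snf2 minimal, snf2 rich, swi1 rich and the snf2 medium difference, and 0 genes in the swi1 medium difference. Without centring the medians were -0.61, -0.56, -0.56 and -0.55 in snf2 minimal, swi1 minimal, snf2 rich and swi1 rich. With genes measured on all 8 arrays the median was -0.58 in snf2 minimal and -0.63 in snf2 rich, with 4 pairs in snf2 minimal and 1 in the swi1 medium difference. Taking the first probe gave a median of -0.64 in snf2 rich, 2 pairs in swi1 rich and 0 in the snf2 medium difference.

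With the replicate number as a block, 45, 38, 37 and 41 genes were called in snf2 minimal, swi1 minimal, snf2 rich and swi1 rich. Of all genes tested, 26.1%, 24.8%, 38.9% and 37.1% were called there in either direction. That fit called 0 small-subunit genes in the swi1 medium difference, and 5 pairs in snf2 minimal and 1 in snf2 rich. The replicate numbers did not pair the samples.

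Single genes near 0 changed sign. Leaving out 1 array at a time, RPS16A ran from -0.0545 to 0.0755 in snf2 minimal, RPS16A from -0.147 to 0.172 and RPS9A from -0.237 to 0.418 in swi1 minimal, and RPS28A from -0.231 to 0.025, RPS16A from -0.333 to 0.108 and RPS10B from -0.002 to 0.212 in swi1 rich. In swi1 minimal the 12-array fit gave RPS9A -0.0173 and RPS19B -0.30, with -0.26 for RPS19B without replicate 1 of snf2 rich. In snf2 rich, without centring, RPS19B had 0.027, RPS16A 0.018 and RPS10B 0.0085, and the first probe of RPS19B gave 0.44 (limma adjusted p = 0.0163), above 0. The cause was not tested.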
